A study of Homo sapiens with 9 samples.

Results

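The mitochondrially encoded genes are all genes of the human mitochondrial genome, chosen by gene symbols that start with MT-. There are 37 of them among the 61541 gene identifiers of the count tables, and they comprise 13 protein-coding genes, 2 rRNA genes and 22 tRNA genes. The tables cover H69, an immortalized human line of cholangiocytes (the epithelial cells of the bile ducts), with 9 RNA-sequencing libraries that form 3 groups of 3. Ctrl cells received 10 µl DMSO as vehicle, the second group received 10 µM acetazolamide, a carbonic anhydrase inhibitor, and the third group received Laminin511-E8, a recombinant human laminin fragment that binds integrins, at 0.25 µg/cm2. All groups were the wild-type line, seeded at 100000 cells per well. Treatment began after 48 h of growth and lasted 48 h, and the medium was renewed at 24 h. Whether the treated wells received the same volume of DMSO is not given for the acetazolamide and Laminin511-E8 groups, and the 3 libraries of a group, called biological replicates by the submitters, were those with the highest RNA integrity of each group. Separate days or passages are not given, so the SDs and p-values below rest on differences between these samples that may be technical in part. RNA was captured by its poly(A) tail before library preparation, and the library lengths were 150 to 850 bp.

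The mitochondrial genome is a small circle of DNA that is present in many copies per cell. Both of its strands are transcribed as long precursors that span several genes, and the precursors are cut mainly at the tRNAs that lie between the other genes. The 13 proteins are subunits of complexes I, III and IV of the respiratory chain and of ATP synthase (complex V), and the 2 rRNAs and 22 tRNAs serve the ribosome of the mitochondrion. MT-ND6 is the only coding gene on the light-strand transcript. Most mitochondrial mRNAs carry a short poly(A) tail, whereas MT-ND6 largely lacks one and the mature tRNAs are not captured as mRNA. Since capture, and not total RNA, was sequenced, levels of these genes are levels of captured RNA. A cholangiocyte draws on mitochondrial ATP for secretion and ion transport.

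The depth ranged from 12529867 to 39518899 counts per library, and 22348 to 27045 genes had a count. The biliary markers EPCAM, KRT19 and KRT7 were present in every library (lowest levels 61.7, 391 and 1121 CPM, the count of a gene scaled to the library total), whereas the biliary gene CFTR had 3 counts in all libraries together. The hepatocyte markers ALB, APOA1 and TTR had 1, 0 and 0 counts, and the leukocyte markers PTPRC and CD3E had 4 and 0. No pair of libraries of a group was alike within sampling noise.

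Transcripts of the 37 genes made up 9.43% to 11.8% of the counts, apart from 1 control library. The share was 10.4%, 16.2% and 10.0% of all counts in Ctrl 1, 2 and 3, 10.7%, 9.43% and 11.8% in acetazolamide 1, 2 and 3, and 11.3%, 11.3% and 11.6% in Laminin511-E8 1, 2 and 3. Ctrl 2 stood above the other 8 libraries, which lay between 9.43% and 11.8%, and the groups overlapped. The 95% Wilson interval of the Ctrl 2 share was 16.2% to 16.3%, which covers counting error only. In Ctrl 2 the 13 coding genes held 12.6% of all counts, against 6.91% to 8.72% in the other 8 libraries, and the rRNAs held 3.65%, against 2.52% to 3.22%. Of the 10 genes with most counts, 8 to 9 were mitochondrial in each library. The group means were 12.2% ± 3.50 in Ctrl, 10.6% ± 1.16 in acetazolamide and 11.4% ± 0.177 in Laminin511-E8 (SD, n = 3 libraries each). The difference from Ctrl was -1.57 percentage points with acetazolamide (exact two-sided permutation test, p = 0.70) and -0.784 with Laminin511-E8 (p = 1 in the same exact test), and the treatments differed from each other by 0.785 (exact p = 0.40), or 0.183 without acetazolamide 2 and 1.34 without acetazolamide 3. The smallest p that 3 against 3 libraries allow is 0.10. Without Ctrl 2 both differences from Ctrl turned, to 0.452 and 1.24 percentage points, and the Laminin511-E8 libraries then all lay above both controls. In a share of counts, more mitochondrial RNA and less nuclear poly(A) RNA cannot be told apart, and in bulk RNA neither can a change in each cell and a change in the mix of cells.

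**Figure D1:**
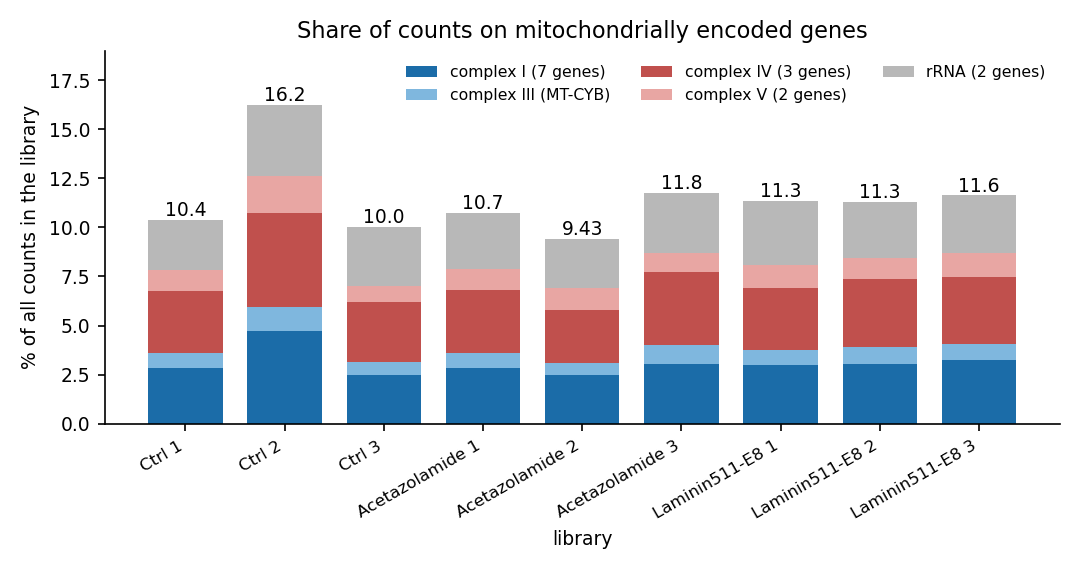
Stacked bars show the percentage of all counts of each library that fell on mitochondrially encoded genes, split into the coding genes of complexes I, III, IV and V and the 2 rRNAs; the tRNAs are too few to see. The number over each bar is the whole share, which is 16.2% in Ctrl 2 and 9.43% to 11.8% in the other 8 libraries.

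In Ctrl 2 the excess ran through the coding genes of all 4 complexes but not through both rRNAs. Against the mean CPM of Ctrl 1 and Ctrl 3, the median coding gene was 1.78-fold higher in Ctrl 2 (0.83 on the log2 scale). MT-ATP8, a small subunit of ATP synthase, stood furthest apart, with 2323, 5033 and 1319 CPM in Ctrl 1, 2 and 3, a 2.76-fold difference. MT-CO1, the catalytic core subunit of cytochrome c oxidase (complex IV), had 14068, 20588 and 14834 CPM, which put Ctrl 2 1.42-fold higher. Ctrl 2 was the highest control for both genes. The rRNA of the large ribosomal subunit, MT-RNR2, had 22656, 32127 and 22401 CPM, and was 1.43-fold higher in Ctrl 2. MT-RNR1, the rRNA of the small subunit, had 2718, 4372 and 7505 CPM, so that Ctrl 2 lay between the other control libraries. Of the 15 coding and rRNA genes, 14 had their highest CPM of all 9 libraries in Ctrl 2, the exception being MT-RNR1, and 4.16% of 13752 nuclear genes did so. The lowest of those 14 genes was 0.51 higher on the log2 scale, a value that 303 of the nuclear genes reached. The nuclear genes had a median of -0.15 and a 5th to 95th percentile range of -0.63 to 0.31. Their CPM are lowered in Ctrl 2 by the mitochondrial counts in its total. Ctrl 2 was singled out for its mitochondrial share, so these comparisons describe the library and are no separate support. Some other measures of the Ctrl 2 library also lay outside the range of the other 8. They are set against totals that include the mitochondrial counts, so they are not independent of the high mitochondrial share. Nuclear copies of mitochondrial genes held 0.275% of its counts against 0.137% to 0.200%, and the tRNAs held 0.0152% of its mitochondrial counts against 0.0196% to 0.0326%. Its TMM scaling factor was the lowest, at 0.934. Cytosolic ribosomal protein genes held 3.46%, the lowest share, against 3.60% to 4.37%. Nuclear RNAs that lack a poly(A) tail (a list of 91 genes, mainly histone and small RNA genes) held 0.0215% of all its counts against 0.0152% to 0.0219% in the other libraries. This is near the upper end of their range. The totals include the mitochondrial counts, which lowers these nuclear shares most in Ctrl 2. Its place per nuclear count can therefore differ and was not computed. The part of these measures in the high mitochondrial share was not tested.

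**Figure D2:**
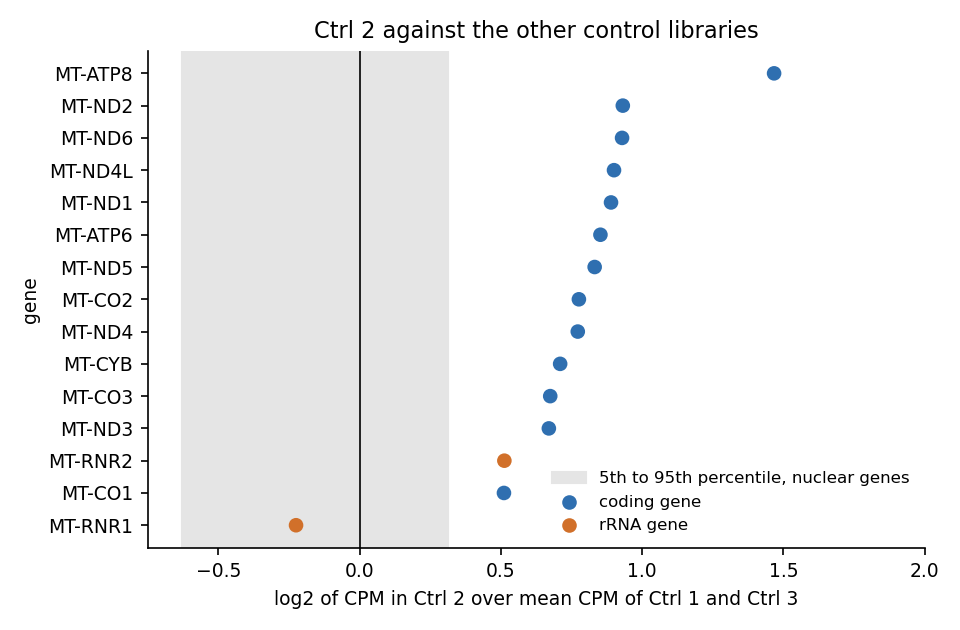
Each point is the log2 ratio of the CPM in Ctrl 2 to the mean CPM of Ctrl 1 and Ctrl 3 for 1 gene, with coding genes in blue and rRNA genes in orange, and the grey band spans the 5th to the 95th percentile of 13752 nuclear genes (-0.63 to 0.31). All points but MT-RNR1 lie to the right of the band, with MT-ATP8 furthest, at 1.47.

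Levels of single genes can be compared only per length, and neighbouring genes of this genome overlap. The start of MT-ATP6 (chrM:8527-9207, plus strand, GRCh38) lies inside the end of MT-ATP8 (chrM:8366-8572, plus strand), and both are read from one mRNA, as are MT-ND4L (chrM:10470-10766) and MT-ND4 (chrM:10760-12137). The whole of MT-ATP8, the first 100 bases of MT-ATP6, the last 60 of MT-ND4L and the first 60 of MT-ND4 are shown, because a read in the stretch printed in capitals, which both genes of a pair hold, cannot be given to 1 of them by position. The stretch has 46 bases in the first pair and 7 bases in the second.
MT-ATP8: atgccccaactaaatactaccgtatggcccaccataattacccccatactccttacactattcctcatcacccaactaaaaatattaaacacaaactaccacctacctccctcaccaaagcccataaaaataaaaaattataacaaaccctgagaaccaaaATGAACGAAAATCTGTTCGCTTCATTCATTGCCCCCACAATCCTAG
MT-ATP6: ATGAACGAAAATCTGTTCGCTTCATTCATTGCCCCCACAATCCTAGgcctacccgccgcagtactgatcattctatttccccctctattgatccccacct
MT-ND4L: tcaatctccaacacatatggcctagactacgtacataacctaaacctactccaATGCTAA
MT-ND4: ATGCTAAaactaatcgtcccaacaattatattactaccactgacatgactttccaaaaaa

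Per kilobase of gene length, the coding genes spanned 11.1-fold to 18.0-fold within a library, although all but 1 are cut from the same precursor. MT-CO2, which encodes the copper-binding subunit of complex IV that takes electrons from cytochrome c, led with a mean of 16189 CPM per kb over the 9 libraries, followed by MT-RNR2 at 16007. Their order is not settled, since MT-CO2 was above MT-RNR2 in 5 of 9 libraries. The ATP synthase subunits MT-ATP6 and MT-ATP8 followed at 13151 and 13084 CPM per kb. With only the 161 bases of MT-ATP8 that no other gene shares counted as its length, its level was 16823 CPM per kb, the highest of all. The other complex IV subunits MT-CO3 and MT-CO1 had 11098 and 9236 CPM per kb, with the complex I subunit MT-ND4 between them at 9411, above MT-CO1 in 7 of 9 libraries. MT-CYB, the only mitochondrially encoded subunit of complex III, had 7190 CPM per kb. The other complex I subunits were lower, with MT-ND2 at 6306, MT-ND4L at 4234, MT-ND1 at 3196, MT-ND5 at 3026, MT-ND3 at 2376 and MT-ND6 at 1219 CPM per kb. MT-RNR1 lay among them at 4784 CPM per kb. MT-ND1 exceeded MT-ND5 in 5 of 9 libraries, so these neighbours do not differ beyond their spread. MT-ND6 was the lowest coding gene in each of the 9 libraries, and the median of the 12 plus-strand coding genes was 5.63-fold to 8.64-fold above it. The complexes, in counts, took 35.0% to 37.6% (I, 7 genes), 8.99% to 10.9% (III), 38.1% to 43.4% (IV, 3 genes) and 11.4% to 16.6% (V, 2 genes) of the coding counts.

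**Figure D3:**
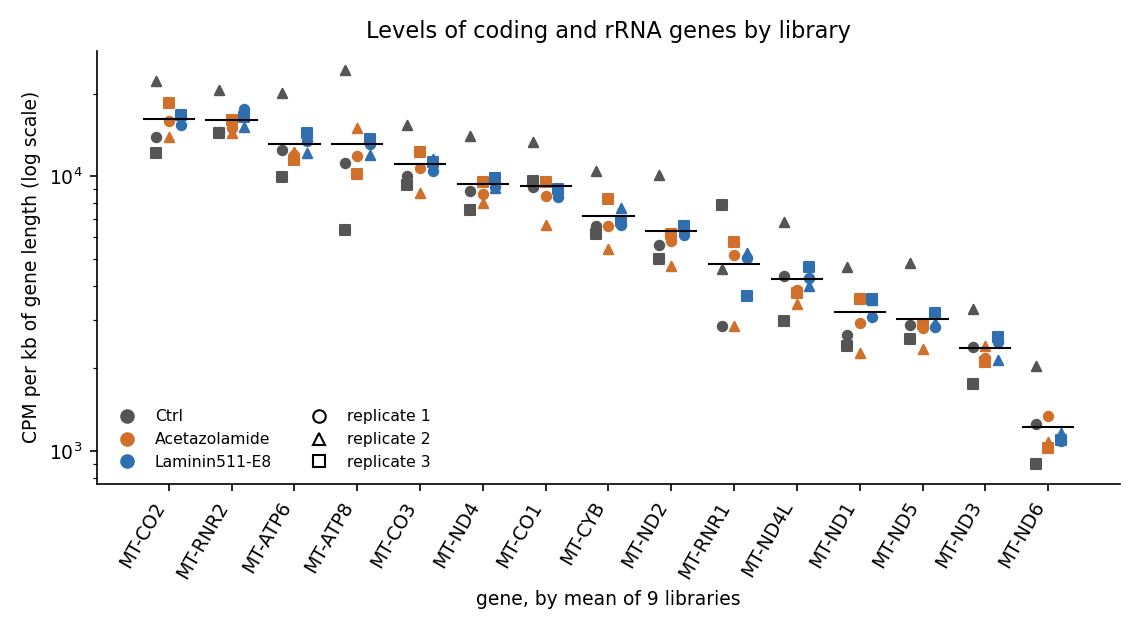
CPM per kilobase of gene length, on a log axis, is plotted for the 13 coding and 2 rRNA genes, with 1 symbol per library (colour for group, shape for replicate) and a black line at the mean of the 9 libraries. The genes fall from MT-CO2 at a mean of 16189 to MT-ND6 at 1219 CPM per kb, and the grey triangle of Ctrl 2 is on top for each gene but MT-RNR1.

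Neither treatment gave a mitochondrially encoded gene that passed the test. Of the 37 genes, 29 passed the filter on low counts (all 15 coding and rRNA genes and 14 tRNAs). With edgeR's quasi-likelihood test and Benjamini-Hochberg adjustment, 0 of the 29 had an adjusted p under 0.05 in each of the 3 comparisons, and so did 0.0% of all 15997 genes tested in each. DESeq2 and limma voom also called 0 members, and DESeq2 called 7, 21 and 19 genes of the whole table in acetazolamide against Ctrl, Laminin511-E8 against Ctrl and Laminin511-E8 against acetazolamide. At an unadjusted p under 0.05, 2 members were found in acetazolamide against Ctrl (MT-CO1 and MT-TM), where 1.83% of all genes were. In Laminin511-E8 against Ctrl there were 0 members, against 2.84% of all genes, and in Laminin511-E8 against acetazolamide 1 member (MT-TM), against 2.34%. MT-TM, the tRNA of methionine, rests on 4 to 23 counts per library.

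The 15 coding and rRNA genes nevertheless leaned one way in the fit. They were measured in the same libraries and are not replicates, so the tallies below are descriptions only. In acetazolamide against Ctrl, the log2 fold change of 15 of the 15 was below 0 (median -0.27, range -0.45 to -0.080, beside a median of 0.0049 over all genes). In Laminin511-E8 against Ctrl, the median was -0.15 and 1 of 15, MT-ND1, was above 0. In Laminin511-E8 against acetazolamide, the median was 0.14 and 14 of 15 were above 0. Both comparisons with Ctrl share the control libraries. The lean against Ctrl rested on Ctrl 2, since without it the medians were 0.063 (11 of 15 above 0) and 0.22 (13 of 15 above 0), and still 0 members passed. At an unadjusted edgeR p under 0.05, 0 and 3 of the 15 were found without Ctrl 2, against 1 and 0 with all libraries. The share of all genes at that threshold without Ctrl 2 is not given here, so nothing is read from these counts.

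**Figure D4:**
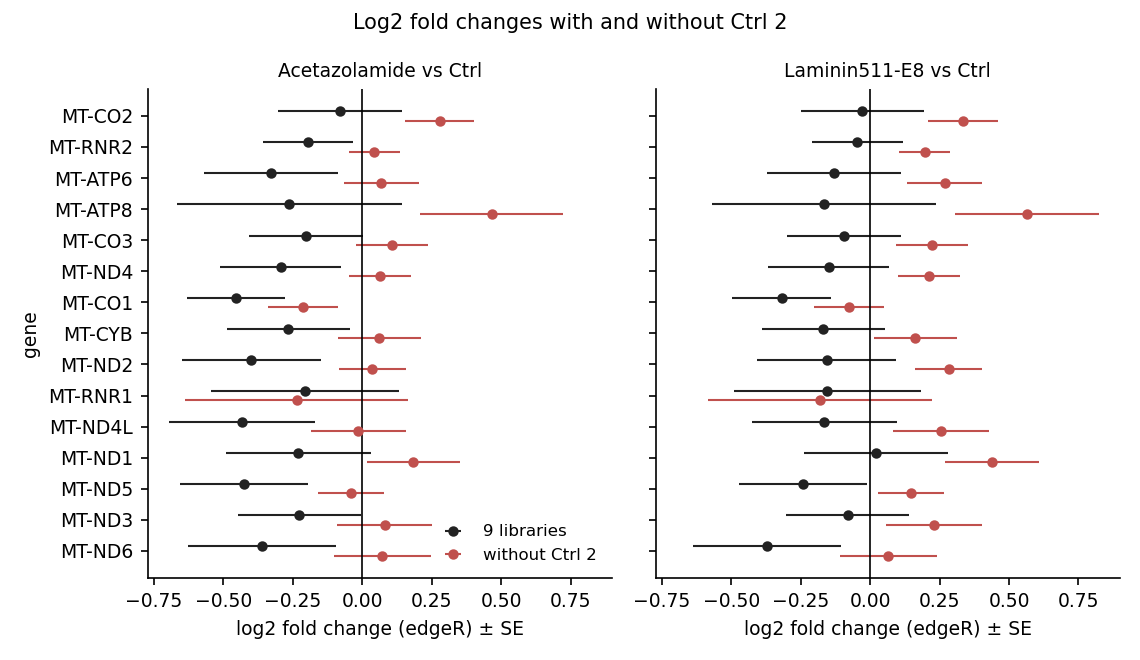
Log2 fold changes of the 13 coding and 2 rRNA genes from edgeR, with standard errors as bars, are shown for both treatments against Ctrl, in black for all 9 libraries and in red without Ctrl 2. The black points lie below 0 apart from MT-ND1 with Laminin511-E8, and without Ctrl 2 the medians lie at 0.063 and 0.22.

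Of single members, MT-CO1 had the lowest unadjusted p in the comparison of acetazolamide with Ctrl. It had 14068, 20588 and 14834 CPM in the Ctrl libraries, 13048, 10303 and 14662 with acetazolamide and 12963, 13862 and 13844 with Laminin511-E8. All Laminin511-E8 libraries were below all controls, whereas acetazolamide 3 lay inside the control range. The edgeR log2 fold change was -0.45 ± 0.18 (SE) with acetazolamide (adjusted p = 1.00) and -0.32 ± 0.18 with Laminin511-E8 (adjusted p = 1.00). Without Ctrl 2 they were -0.21 and -0.077. Among the 21 members with at least 10 counts in every library, the groups did not overlap in CPM for 0 in acetazolamide against Ctrl, for 1 (MT-CO1) in Laminin511-E8 against Ctrl and for 2 (MT-TI and MT-ND4L) in Laminin511-E8 against acetazolamide. Over all genes of that depth, 5.47%, 8.08% and 5.3% did not overlap. The members' counts are near this background. MT-ND4L, a complex I subunit, had 1144, 1018 and 1117 CPM in acetazolamide 1, 2 and 3 and 1270, 1187 and 1392 CPM in Laminin511-E8 1, 2 and 3, and the control range of 883 to 2022 CPM enclosed both groups.

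The make-up of the coding counts can be compared without the mitochondrial share, since each gene is set against the sum of the 13 within its library. MT-CO2 took 12.2%, 12.1% and 11.9% of the coding counts in Ctrl 1, 2 and 3, 13.8%, 13.7% and 14.6% in acetazolamide 1, 2 and 3, and 12.99%, 13.6% and 13.1% in Laminin511-E8 1, 2 and 3. The 3 groups did not overlap, with the controls lowest and acetazolamide highest. The means were 12.1% ± 0.160 in Ctrl, 14.0% ± 0.476 in acetazolamide and 13.2% ± 0.333 in Laminin511-E8 (SD, n = 3 each). The difference from Ctrl was 1.99 percentage points (1.16-fold) with acetazolamide and 1.17 (1.10-fold) with Laminin511-E8, both larger than the SDs. Each had an exact two-sided permutation p of 0.10, the smallest the design allows, and 0.65 after adjustment over 39 tests (13 genes in 3 comparisons). MT-CO2 was singled out after its values had been seen. The groups did not overlap in 6 of these 39 tests, 2 in each comparison, and shares of the same sum are not independent of each other. In CPM, 5.47%, 8.08% and 5.3% of all genes did not overlap in acetazolamide against Ctrl, Laminin511-E8 against Ctrl and Laminin511-E8 against acetazolamide. CPM is a measure unlike a share of the coding sum, for which no background was computed. With 13 genes and no such background, nothing is read from the count of 6. Apart from MT-CO2 in all 3, the groups did not overlap for MT-ND5 in acetazolamide against Ctrl, MT-ND1 in Laminin511-E8 against Ctrl and MT-ND2 in Laminin511-E8 against acetazolamide. MT-ND5, a core subunit of the proton-pumping arm of complex I, took 6.64%, 6.95% and 6.61% in Ctrl and 6.44%, 6.19% and 6.02% in acetazolamide libraries 1, 2 and 3. MT-ND1, at the junction of the arms of complex I, took 3.23%, 3.56% and 3.30% in Ctrl and 3.64%, 4.01% and 3.92% in Laminin511-E8.

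The place of MT-CO2 depended on what it was set against. As a percentage of MT-CO1 counts, MT-CO2 was 56.1% to 74.2% in Ctrl, 83.5% to 92.2% in acetazolamide and 81.2% to 83.0% in Laminin511-E8. As a percentage of MT-CYB counts it was 119% to 128%, 134% to 153% and 132% to 145%, and of MT-ND4 counts 78.4% to 79.8%, 86.4% to 96.5% and 83.2% to 91.6%. In these 3 ratios the controls lay below both treated groups. As a percentage of MT-CO3 counts MT-CO2 was 114% to 127%, 129% to 139% and 126% to 129%, and of the counts of all 37 genes 8.32% to 9.40%, 10.1% to 10.8% and 9.29% to 10.2%. In the latter ratios acetazolamide lay above the controls, whereas Laminin511-E8 overlapped them (exact permutation p = 0.20 in both). MT-CO1, MT-CO2, MT-CO3 and MT-CYB have nearly the same GC content (46.2%, 46.2%, 46.6% and 46.3%), and MT-ND4 has 44.3%. Whether base composition has a part in the MT-CO2 ratios was not tested. What MT-CO2 was set against was chosen after the values had been seen. Against the rRNAs, and as CPM, the groups overlapped. The MT-CO2 level was 9527, 15280 and 8321 CPM in Ctrl, 10893, 9498 and 12704 CPM in acetazolamide and 10522, 11500 and 11414 CPM in Laminin511-E8. Its edgeR log2 fold changes were -0.080 ± 0.22 and -0.028 ± 0.22 (SE; adjusted p = 1.00 in both), the closest to 0 among the coding genes in acetazolamide against Ctrl.

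The ratio of the rRNAs differed widely between libraries of the same group. MT-RNR2 (chrM:1671-3229) had 8.34, 7.35 and 2.98 times the counts of MT-RNR1 (chrM:648-1601) in Ctrl 1, 2 and 3, 4.74, 8.28 and 4.53 times in acetazolamide 1, 2 and 3, and 5.69, 4.72 and 7.31 times in Laminin511-E8 1, 2 and 3. Each group held a ratio above 7 and a ratio below 5, and all 3 ranges overlapped. The means were 6.22 ± 2.85, 5.85 ± 2.10 and 5.91 ± 1.31 (SD, n = 3), and the exact permutation p was 0.90 for either treatment against Ctrl. The rRNAs together took 22.5% to 29.9% of the mitochondrial counts (exact permutation p = 0.80 for either treatment against Ctrl). With the 3 comparisons of 4 measures (mitochondrial share, rRNA share, rRNA ratio and MT-ND6 share), 12 tests were made, and the adjusted p was 1 in each.

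The libraries also differed in the base composition of the genes they held. The mean log2 deviation of the 10% of genes lowest in GC content, less that of the 10% highest, was 0.33, 0.22 and -0.15 in Ctrl 1, 2 and 3, -0.23, 0.72 and -1.01 in acetazolamide and 0.35, -0.68 and 0.45 in Laminin511-E8. The 5 libraries above 0 had MT-RNR2 to MT-RNR1 ratios of 5.69 to 8.34, and the 4 libraries below 0 had ratios of 2.98 to 4.74, with no overlap. MT-RNR1 (GC content 45.5%) had 2715 to 4812 CPM in the 5 libraries and 4931 to 7505 CPM in the 4. MT-RNR2 (GC content 42.8%) overlapped, at 22465 to 32127 and 22401 to 24988 CPM. Complex V took 13.8% to 16.6% of coding counts in the 5 libraries and 11.4% to 13.5% in the 4, and complex IV took 38.1% to 40.2% and 40.8% to 43.4%. The mitochondrial share overlapped (9.43% to 16.2% and 10.0% to 11.8%), as did the MT-CO2 share of coding counts (12.1% to 13.7% and 11.9% to 14.6%). Each group held libraries of both kinds. The part of base composition in these ratios was not tested.

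**Figure D5:**
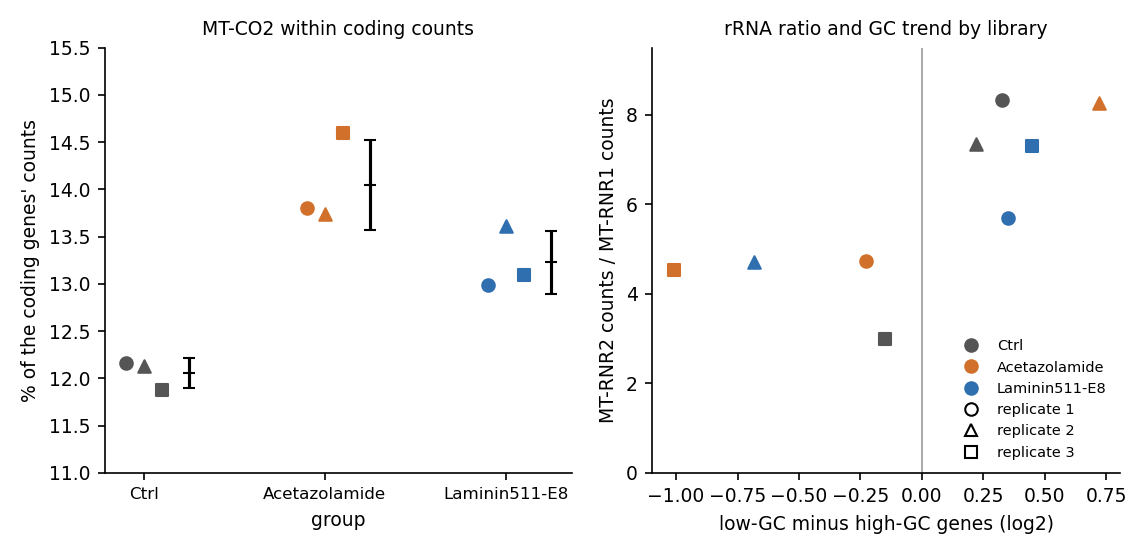
On the left, points are the percentage of the coding counts on MT-CO2 in each library, with the mean and SD beside them (axis from 11%); on the right, the ratio of MT-RNR2 to MT-RNR1 counts is plotted against the difference in log2 deviation between low-GC and high-GC genes, 1 symbol per library. On the left the groups do not overlap (11.9% to 12.2%, 13.7% to 14.6% and 12.99% to 13.6%); on the right the ratio is 5.69 or more in each library above 0 and 4.74 or less in each library below 0.

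MT-ND6, a complex I subunit and the only coding gene of its strand, took 0.838%, 0.851% and 0.671% of the coding counts in Ctrl 1, 2 and 3, 0.889%, 0.818% and 0.621% in acetazolamide 1, 2 and 3 and 0.704%, 0.722% and 0.661% in Laminin511-E8 1, 2 and 3. The acetazolamide libraries enclosed the range of the controls, and the Laminin511-E8 libraries lay below Ctrl 1 and Ctrl 2, with 1 of them also below Ctrl 3. The difference from Ctrl was -0.0106 percentage points with acetazolamide (exact permutation p = 0.90) and -0.0914 with Laminin511-E8 (exact permutation p = 0.30). The strand setting of the counting is not given in the sources used here, and without strand, reads of MT-ND6 and of the opposite transcript cannot be told apart.

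The 22 tRNAs had 5921 counts in all 9 libraries together, or 0.0243% of the mitochondrial counts, and are 59 to 75 bases long, below the 150 bp at which the library lengths began. Only 6 reached 10 counts in every library. MT-TQ and MT-TP, the tRNAs of glutamine and proline, held 43.4% of the tRNA counts, with 1440 and 1129. They were followed by MT-TI (isoleucine, 607), MT-TS1 (serine, 591), MT-TE (glutamate, 496) and MT-TA (alanine, 237). MT-TQ had 197, 110 and 98 counts in Ctrl, 294, 95 and 86 in acetazolamide and 132, 142 and 286 in Laminin511-E8 libraries 1, 2 and 3, which followed the depth more than the group (3.86 to 8.44 CPM). The 8 tRNAs on the minus strand had 4032 counts and the 14 on the plus strand 1889. Among the coding genes, captured RNA was lower per length for MT-ND6 than for any plus-strand gene. MT-ND6 is the only minus-strand coding gene and largely lacks a poly(A) tail, so the abundance of the strand transcripts cannot be read from it. On the plus strand MT-TI was highest. MT-TN on the minus strand and MT-TK and MT-TR on the plus strand had 0 counts in every library. A count of 0 allows up to 3 counts, or 0.0759 to 0.239 CPM, which covers counting error only. Without knowledge of strand and of how reads over several genes were counted, a count on a tRNA cannot be told apart from a read of a precursor or of the opposite strand. In the fit, 10 of the 14 tRNAs tested were above 0 in acetazolamide against Ctrl, 9 of 14 in Laminin511-E8 against Ctrl and 4 of 14 in Laminin511-E8 against acetazolamide, and 0 passed.

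The tRNAs that these counts turn on are shown 5′ to 3′ on their own strand (GRCh38): the highest pair, the highest of the plus strand, and MT-TK, which lies between MT-CO2 and MT-ATP8 and had no count. They are MT-TQ (chrM:4329-4400, minus strand), MT-TP (chrM:15956-16023, minus strand), MT-TI (chrM:4263-4331, plus strand) and MT-TK (chrM:8295-8364, plus strand). Capitals mark the 3 bases where MT-TQ and MT-TI overlap on opposite strands. For MT-TQ, MT-TP and MT-TS1, the nearest gene on the same strand is 1186, 1213 and 1554 bases away, whereas MT-TI directly adjoins MT-ND1.
MT-TQ: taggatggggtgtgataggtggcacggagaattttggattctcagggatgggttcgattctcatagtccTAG
MT-TP: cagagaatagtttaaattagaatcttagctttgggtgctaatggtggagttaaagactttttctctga
MT-TI: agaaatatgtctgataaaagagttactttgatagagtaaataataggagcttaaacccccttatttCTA
MT-TK: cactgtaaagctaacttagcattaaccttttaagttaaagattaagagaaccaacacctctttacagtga

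Counts were also assigned to copies of mitochondrial DNA in the nuclear genome, and the levels above leave them out. How reads that match both places were handled is not given. RNA of a copy and mitochondrial RNA placed on it therefore cannot be told apart. Of 417 identifiers named as pseudogenes of mitochondrial genes, 104 had a count, 381632 counts in all, and 3 neighbouring copies on chromosome 1 held 97.5% of them. MTATP6P1 (chr1:633696-634376) had 285499 counts, or 14.7% of the counts of MT-ATP6, to which it is 98.5% identical over 681 bases, with an identical run of up to 141 bases. MTND2P28 (chr1:629640-630683) had 71827 counts, or 5.11% of those of MT-ND2. MTCO1P12 (chr1:631074-632616) had 14630 counts, or 0.485% of those of MT-CO1. The copy of MT-CO2, MTCO2P12, had 592 counts, or 0.0249%. Counts of MTATP6P1 ran from 11.1% (acetazolamide 2) to 18.5% (acetazolamide 3) of those of MT-ATP6. In Ctrl 2, where the MT-ATP6 level was highest, it was 16.4%. The first 100 bases of both genes on GRCh38 are shown, MT-ATP6 from chrM:8527-8626 and MTATP6P1 from chr1:633696-633795, with the 1 base in capitals at which they differ, because a read in this stretch is told apart by that base alone.
MT-ATP6: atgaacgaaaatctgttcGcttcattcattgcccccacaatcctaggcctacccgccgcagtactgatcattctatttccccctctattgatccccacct
MTATP6P1: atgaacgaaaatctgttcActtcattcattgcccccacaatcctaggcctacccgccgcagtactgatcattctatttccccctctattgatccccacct

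Nuclear genes that make, cut, stabilize or degrade mitochondrial RNA, or that drive its synthesis from the nucleus, formed a list of 50 genes, of which 49 were tested. With edgeR, 0 of 49 passed in each comparison, beside 0.0% of all genes, and 0, 1 and 1 had an unadjusted p under 0.05 in acetazolamide against Ctrl, Laminin511-E8 against Ctrl and Laminin511-E8 against acetazolamide. Over all genes, 1.83%, 2.84% and 2.34% had such an unadjusted edgeR p, in the same order. The median log2 fold changes of the 49 were 0.013, 0.052 and 0.043. POLRMT, the mitochondrial RNA polymerase, stood at 22.1 ± 6.17 CPM in Ctrl, 24.0 ± 9.00 in acetazolamide and 22.7 ± 5.70 in Laminin511-E8 (SD, n = 3 each). TFAM, which packages the genome and opens its promoters, stood at 123 ± 8.87, 109 ± 43.0 and 121 ± 31.5 CPM in the same groups. LRPPRC, which binds and protects mitochondrial mRNAs, stood at 288 ± 31.0, 277 ± 59.7 and 298 ± 40.2 CPM. In Ctrl 2, POLRMT, TFAM and LRPPRC had 17.8, 118 and 255 CPM, against 19.5, 133 and 317 in Ctrl 1 and 29.2, 118 and 292 in Ctrl 3. These CPM are set against totals that include the mitochondrial counts, which were highest as a share in Ctrl 2.

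The gene of the list with the smallest p was PPARGC1A, a coactivator that drives the synthesis of mitochondria. It had 27.2, 28.8 and 23.9 CPM in Ctrl 1, 2 and 3, 24.3, 32.0 and 23.8 CPM in acetazolamide 1, 2 and 3, and 16.4, 15.3 and 18.8 CPM in Laminin511-E8 1, 2 and 3. Every Laminin511-E8 library lay below every other library. The edgeR log2 fold change was -0.69 ± 0.18 (SE) in Laminin511-E8 against Ctrl (adjusted p = 1.00) and -0.62 ± 0.18 in Laminin511-E8 against acetazolamide (adjusted p = 1.00). With the trend of each library with GC content removed, the gene passed in both, at -0.65 (edgeR adjusted p = 0.0185) and -0.68 (adjusted p = 0.0173), when 47 and 23 genes of the whole table passed. It passed in no other alternative run. The others with the smallest p were MRM1, GABPA and ELAC2 in acetazolamide against Ctrl (log2 fold changes 1.24, -0.30 and 0.16), MRM1 and DDX28 in Laminin511-E8 against Ctrl (1.79 and 0.27), and MTERF3 and POLG2 in Laminin511-E8 against acetazolamide (0.24 and 0.12). Single libraries moved these values, since GABPA was at -0.56 without acetazolamide 2, and without acetazolamide 3 the values of GABPA, ELAC2, MTERF3 and POLG2 were -0.12, 0.031, 0.037 and 0.040. DDX28 was at 0.15 and MRM1 at 0.87 against Ctrl without Laminin511-E8 2, and MRM1 was at 0.51 in acetazolamide against Ctrl without acetazolamide 1. MRM1, a methyltransferase of the large rRNA, lay below 1.70 CPM in each library.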

How the data were processed

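The deposited values are raw counts per gene for 9 libraries. The submitters' processing notes name GRCh38, Trimmomatic 0.39, FastQC 0.11.9, HTSeq 0.11.0 and HISAT2 2.2.1. The gene annotation and strandedness of the counting, and how multi-mapping reads were handled, are not given there. Whether reads that match both a gene and its nuclear copy were kept would change the counts of both. There were 0 columns without a matched sample.

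CPM were computed from total counts, and CPM per kb with gene lengths of GENCODE release 29, which also gave coordinates and sequences. All 15997 genes that passed filterByExpr were fitted with edgeR 4.0.16 (R 4.3.3, TMM scaling, robust quasi-likelihood, 9 libraries), with Benjamini-Hochberg adjustment at 0.05. DESeq2 1.42.0 and limma 3.58.1 (voom), other scalings and filters, a GC trend (local regression, span 0.3), a replicate block and fits without each library were alternatives. Shares were compared with exact two-sided permutation tests. Fits were tried on simulated counts with 200 changed genes. These were drawn with a fixed dispersion and no GC trend, so they do not show how the fits perform at the spread of the real libraries. Python 3.11.15, pandas 2.3.3, SciPy 1.17.1, Biopython 1.88 and matplotlib 3.10.9 were used. The genes, lists and tests were chosen with earlier results of these data known. The coding and rRNA genes were given in every library or by range, tRNAs with at least 10 counts in every library or the highest or lowest of their strand were named, and POLRMT, TFAM, LRPPRC, the passing members of the list of nuclear genes, or else the 3 with the smallest p, were named. MT-TM was named after its values had been seen.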

Additional observations from a re-analysis of the deposited data

How the results depend on the processing

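The count of mitochondrially encoded genes called was 0 in every alternative run, and the direction of the MT-CO1 and MT-CO2-share differences held in all of them. The cause of the changes below was not tested, except that leaving out Ctrl 2 takes away the library with the highest mitochondrial share. Without 1 library each, the difference in mitochondrial share ran from -2.67 to 0.452 percentage points in acetazolamide against Ctrl and from -1.89 to 1.24 in Laminin511-E8 against Ctrl, and the median log2 fold change of the 15 coding and rRNA genes from -0.51 to 0.063 and from -0.36 to 0.22, with the values above 0 obtained without Ctrl 2. The rRNA share ran from -0.845 to 2.87 points (acetazolamide against Ctrl), -0.936 to 2.78 (Laminin511-E8 against Ctrl) and -1.18 to 0.537 (Laminin511-E8 against acetazolamide). The MT-RNR2 to MT-RNR1 ratio ran from -1.99 to 0.682, -1.94 to 0.740 and -0.643 to 1.27 in the same order, and on the log2 scale it was 0.034 in Laminin511-E8 against Ctrl. The MT-ND6 share in acetazolamide against Ctrl ran from -0.0684 to 0.0668 points. The MT-CO2 log2 fold change ran from -0.29 to 0.28, -0.23 to 0.33 and -0.039 to 0.14, and in Laminin511-E8 against Ctrl was 0.036 with voom and 0.00094 with the replicate block. Over the whole table, DESeq2 called 7, 21 and 19 genes, and with the GC trend removed 47 and 23 genes passed in the comparisons with Laminin511-E8, among them 1 gene of the nuclear list in each (PPARGC1A). With the GC trend removed and the replicate block together, 0 genes passed in each comparison, and PPARGC1A had an edgeR adjusted p of 0.0839 against Ctrl and 0.106 against acetazolamide. The MT-CO2 share without 1 library each differed by 1.71 to 2.14, 0.983 to 1.29 and -1.01 to -0.542 points. Same-numbered libraries did not deviate together (correlations from -0.65 to 0.24), so the numbers do not show pairs. With the replicate block the median log2 fold changes were -0.24, -0.075 and 0.15 and 0 members passed. With 3 libraries a group, only exact p-values of 0.10 or more are possible for the shares, and the tRNA counts are too low to show small differences.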
